A study of Mus musculus with 6 samples.

Results

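Transforming growth factor beta (TGF-beta) genes were followed in rib cage RNA of 6 mouse embryos. The group holds 10 genes, chosen by symbol: the ligands Tgfb1, Tgfb2 and Tgfb3, the receptors Tgfbr1, Tgfbr2 and Tgfbr3, and the latent binders Ltbp1, Ltbp2, Ltbp3 and Ltbp4. All 10 were found once each among the 55487 gene IDs of the count table, and all 10 passed the filter of at least 10 counts summed over the 6 libraries, which left 26596 genes. The 3 control embryos (E420, E434 and E435) are labelled wild type, and the 3 mutant embryos (E423, E433 and E440) are labelled Col2-cre;Foxc1-/-;Foxc2-/-. All were taken at 16.5 dpc. The Col2-cre transgene drives recombination from regulatory sequence of the type II collagen gene, so it is meant to delete both forkhead genes in cells in which that sequence is or was active, and which rib cage cells kept them was not measured here. By the study's methods the sires were heterozygous for Col2-cre and for deleted alleles of both genes. The dams were homozygous for both floxed genes, and the background was mixed C57B6 and Black Swiss. By this cross every embryo, also one labelled wild type, received a floxed allele of each gene from its dam. For its skeletal preparations the paper states that controls lacked the transgene. Which alleles each control embryo received from its sire is not given. The methods say that littermates were compared, but the litter of each embryo is not given.

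TGF-beta ligands are made as long precursors. The cut propeptide stays wrapped around the ligand and keeps it inactive, and most cells secrete this latent complex tethered to a latent TGF-beta binding protein (LTBP), which anchors it to fibrillin microfibrils of the matrix until integrins or proteases release it. The freed ligand binds the type II receptor TGFBR2, which phosphorylates the type I receptor TGFBR1, and SMAD2 and SMAD3 carry the signal to the nucleus. In the skeleton the pathway is known for holding back chondrocyte hypertrophy, for recruiting osteoblast progenitors and for its role in tendon and joint development.

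Library totals ran from 37853988 to 47794799 counts. Levels are given as CPM, counts relative to the library total after scaling by edgeR's TMM method, and 1 count was worth 0.0209 to 0.0264 CPM before scaling. Control E434 and mutant E433 stood apart from the other libraries of their groups. The summed level of 16 chondrocyte markers was 28720 CPM in E434 against 2193 and 2090 CPM in E420 and E435, and 10700 CPM in E433 against 754 and 728 CPM in E423 and E440. No chondrocyte marker was at 0 in all libraries. Other tissue was present too. The summed level of 10 skeletal muscle markers was 16690 and 17190 CPM in E420 and E435 against 36650 and 35880 CPM in E423 and E440, with 26740 CPM in E434 and 21170 CPM in E433. For 8 keratinocyte markers it was 5708 and 6481 CPM against 27590 and 27720 CPM, with 21.3 CPM in E434 and 3327 CPM in E433, and for 6 hepatocyte markers 586 CPM in E433 and 29.2 to 45.99 CPM in the other libraries. The part of these tissues in the levels of the 10 genes was not tested. The pairs E420 with E435 and E423 with E440 were close, with an SD of the log2 ratio across 15130 genes of 0.169 and 0.151, against 0.364 to 0.718 for the other pairs. Whole tissue was sequenced, so fewer cells of a type and less RNA per cell cannot be told apart. Of the deleted genes, Foxc1 had 23.1 to 36.9 CPM in the controls against 3.56 CPM in E423, 9.60 CPM in E433 and 3.51 CPM in E440, and Foxc2 had 1.99 to 4.83 CPM against 0.649 to 1.14 CPM, so both were lower in every mutant (DESeq2 adjusted p of 9.63e-07 and 0.000207, edgeR adjusted p of 0.235 and 0.239).

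Across the 10 genes, log2 fold changes ran from -0.49 (Tgfb1) to 0.45 (Tgfbr3), 9 of the 10 were below 0, and their median was -0.35, against a median of 0.01 and 48.8% of genes below 0 among all 26596 genes tested. Without control E434 the median of the members was -0.18 and 7 of the 10 were below 0, and with the chondrocyte marker level as a covariate these were -0.18 and 7. By edgeR (quasi-likelihood fit, Benjamini-Hochberg adjustment over all genes tested) 0 members passed an adjusted p-value limit of 0.1, and the smallest value was 0.246 for Tgfbr3. Of all genes tested, 0.0526% passed this limit as lower and 0.0376% as higher, and 0.0301% and 0.0338% did so with a log2 fold change of at least 1. At an unadjusted p-value under 0.05, 2 members were lower (Tgfb1 and Tgfbr1) and 1 was higher (Tgfbr3), where 4.7% of all genes were lower and 5.9% higher. In the same 3 genes the 3 mutant libraries did not overlap the 3 control libraries. Such a gap was found for 8.21% of all genes in the lower and for 6.81% in the higher direction. All 10 members had a mean above 10 CPM, and among the 11138 genes at or above that level the gap was found for 10.5% and 4.94%, and an unadjusted p-value under 0.05 for 6.2% and 5.49%. From the same counts, DESeq2 called 2 of the 10 at an adjusted p-value under 0.1, Tgfb1 as lower and Tgfbr3 as higher, against 1.73% and 2.61% of the 21896 genes to which it gave an adjusted p-value. The same 2 were called by DESeq2 on the expected counts that STAR and RSEM give, where 1.58% of all genes were lower and 2.17% higher. The edgeR test called 0 of the 10 with a filter by expression (0.0732% of all genes lower, 0.0585% higher), without a filter (0.0671% each way), with a robust fit (0.12% and 0.0827%), on RSEM counts (0.0502% and 0.0274%) or without control E434 (0.0462% and 0.0308%).

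**Figure D1:**
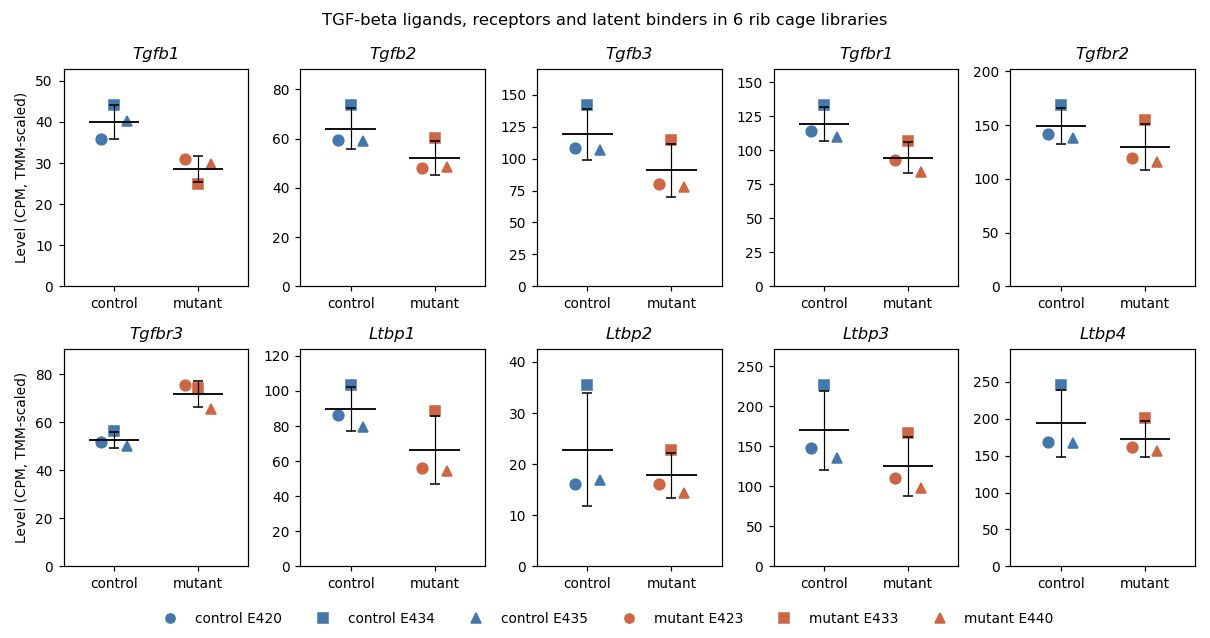
Level of each gene (y axis, TMM-scaled CPM, from 0) in the 3 control and 3 mutant libraries, one panel per gene. Points are single embryos, the long bar is the group mean and the error bar its SD (n = 3). The mutant points lie below the control points for Tgfb1 and Tgfbr1 and above them for Tgfbr3, and the square points of E434 and E433 are the highest of their groups in 8 of the 10 panels.

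Among the ligands, Tgfb1, the isoform that bone matrix stores in the largest amount, was the one whose groups did not overlap. Controls measured 35.9 (E420), 44.2 (E434) and 40.2 CPM (E435), and mutants 31.03 (E423), 24.9 (E433) and 29.7 CPM (E440). Every mutant embryo lay below every control embryo. The group means were 40.1 ± 4.13 CPM (SD, n = 3) and 28.5 ± 3.23 CPM (SD, n = 3). The log2 fold change was -0.49 with a standard error of 0.121 and a 95% interval from -0.78 to -0.20, and the adjusted p was 0.347 by edgeR and 0.0414 by DESeq2. The gene (ENSMUSG00000002603.15) lies on chromosome 7 from 25687002 to 25705077 in GRCm38, and none of its exon bases are shared with another annotated gene. On the TPM scale of RSEM, which also divides by transcript length, control levels were 24.6 (E420), 29.2 (E434) and 25.9 TPM (E435) and mutant levels 19.13 (E423), 19.01 (E433) and 19.02 TPM (E440), again without overlap.

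Among the mutants, the osteoclast and osteoblast markers were lowest in E433, as Tgfb1 was in CPM. In TPM the mutant levels of Tgfb1 were nearly equal (19.01 to 19.13 TPM). Among the controls the osteoclast sum was lowest in E434, where Tgfb1 was highest. The 6 osteoclast markers summed to 260 to 317 CPM in the controls, 165 and 166 CPM in E423 and E440 and 99.7 CPM in E433, and all 6 were lower in every mutant. The 11 osteoblast markers summed to 1658 to 1728 CPM in the controls and to 854, 846 and 351 CPM in these mutants, with 10 of the 11 lower in every mutant. The 7 macrophage markers summed to 224 to 240.5 CPM in the controls and 200.1 to 214 CPM in the mutants, with 2 of the 7 lower and 1 higher in every mutant. Of all genes tested, 8.21% were lower and 6.81% higher in every mutant. Sums of the hypertrophic chondrocyte, tendon and erythroid markers were also lower in every mutant. The part of these cells in the level of Tgfb1 was not tested.

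Tgfb2 and Tgfb3, which act in the perichondrium, tendons and joints among other tissues, had wider spreads. Tgfb2 levels were 59.5 (E420), 73.7 (E434) and 58.9 CPM (E435) in controls against 48.2 (E423), 60.2 (E433) and 48.4 CPM (E440) in mutants. The groups overlapped only through mutant E433, which lay above controls E420 and E435. Its log2 fold change was -0.29 with a 95% interval from -0.61 to 0.03 (edgeR adjusted p = 0.501), and it was -0.18 without E434. Tgfb3 was measured at 108 (E420), 142 (E434) and 106 CPM (E435) in controls and at 79.9 (E423), 115 (E433) and 78.2 CPM (E440) in mutants, and its log2 fold change was -0.39 with a 95% interval from -0.84 to 0.07 (edgeR adjusted p = 0.522). It was -0.24 without E434 and -0.59 without E433. Here too E433 was the mutant library that reached into the range of the controls. Of the exon bases of Tgfb3, 12.4% are shared with other annotated genes, and reads there were left out of the counts.

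The receptors did not share a direction. Tgfbr1 encodes the type I receptor, the kinase that phosphorylates SMAD2 and SMAD3. Its controls measured 114 (E420), 133 (E434) and 109.6 CPM (E435), and its mutants 92.6 (E423), 106.7 (E433) and 84.3 CPM (E440). Every mutant was below every control, with E433 close to E435. The log2 fold change was -0.33 with a standard error of 0.120 and a 95% interval from -0.62 to -0.05, and the adjusted p was 0.429 by edgeR and 0.275 by DESeq2. In TPM the groups overlapped, with 27.9 TPM in E433 and 26.3 TPM in E435. Tgfbr1 (ENSMUSG00000007613.15) lies on chromosome 4 from 47353222 to 47414931. Tgfbr2, the type II receptor that binds the ligand first, was at 141.5 (E420), 169 (E434) and 138 CPM (E435) in controls and at 119.7 (E423), 155 (E433) and 115 CPM (E440) in mutants. These groups overlapped, and the log2 fold change was -0.20 with a 95% interval from -0.54 to 0.14 (edgeR adjusted p = 0.646). It was -0.11 without E434, -0.12 without E440 and -0.34 without E433.

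Tgfbr3 was the 1 member of the 10 with a higher mean in mutants. It encodes betaglycan, a co-receptor without kinase activity that presents TGF-beta 2 in particular to the signaling receptors and also binds inhibin. Control levels were 51.6 (E420), 56.3 (E434) and 50.1 CPM (E435), mutant levels 75.5 (E423), 74.2 (E433) and 65.6 CPM (E440), and every mutant lay above every control. Means were 52.7 ± 3.27 CPM (SD, n = 3) and 71.8 ± 5.38 CPM (SD, n = 3). The log2 fold change was 0.45 with a standard error of 0.0881 and a 95% interval from 0.24 to 0.66, and the adjusted p was 0.246 by edgeR and 0.00612 by DESeq2. The gene (ENSMUSG00000029287.14) lies on chromosome 5 from 107106570 to 107289629. The marker sums that were higher in every mutant were those of adipocytes (132 to 145 CPM in controls and 203 to 604 CPM in mutants), Schwann cells (111 to 120.0 CPM and 136 to 142 CPM) and megakaryocytes and platelets (25.1 to 29.3 CPM and 30.9 to 35.2 CPM). In these lists 6 of 7, 2 of 4 and 0 of 4 genes were higher in every mutant, against 6.81% of all genes. The median log2 fold change of the megakaryocyte and platelet list was -0.40 although its sum was higher. Among the mutants, adipocyte markers were 583 (E423), 203 (E433) and 604 CPM (E440). E433 differed from the other mutants in other marker sums too. The part of any of these cell types in the level of Tgfbr3 was not tested.

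The promoter sequences of the pair of genes lower in every mutant, Tgfb1 and Tgfbr1, are shown as the 250 bases before the RefSeq transcription start, 5′ to 3′ on the plus strand of GRCm38.p6. Capitals mark each GC box, GGGCGG or its reverse complement CCGCCC.
Tgfb1, chr7:25686752-25687001: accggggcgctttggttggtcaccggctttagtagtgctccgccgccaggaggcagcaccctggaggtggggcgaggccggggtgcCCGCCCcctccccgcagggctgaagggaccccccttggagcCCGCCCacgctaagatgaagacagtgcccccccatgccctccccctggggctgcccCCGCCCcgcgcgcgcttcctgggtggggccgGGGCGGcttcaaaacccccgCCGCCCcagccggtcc
Tgfbr1, chr4:47352972-47353221: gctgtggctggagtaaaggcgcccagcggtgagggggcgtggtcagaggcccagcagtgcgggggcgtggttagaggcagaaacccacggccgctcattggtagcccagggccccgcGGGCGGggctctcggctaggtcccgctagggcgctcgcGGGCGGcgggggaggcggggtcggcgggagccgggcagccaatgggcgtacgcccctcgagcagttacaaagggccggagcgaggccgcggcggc
Both are rich in G and C, at 75.2% and 74.8% against a median of 52.4% over all promoter windows, with 5 GC boxes in the window of Tgfb1 and 2 in that of Tgfbr1. RefSeq promoters were at hand for 8 of the 10 genes, with 12 start sites in all, and not for Tgfb3 and Tgfbr3. Searched on both strands, a GC box was in 6 of these 12 windows (Tgfb1, Tgfbr1, Ltbp2 and Ltbp4) and in 32.7% of all 32851 windows. The forkhead core TAAACA was in 0 of the 12 and in 12.03% of all windows, and CAGACA, which holds the core of a SMAD binding element, was in 3 of the 12 (Tgfb2, Ltbp1 and the downstream start of Tgfbr1) and in 17.1% of all. TATAAA was in 1 of the 12 (Tgfb2) and in 12.4% of all. TATAAA and TAAACA can overlap in 1 site, and a match is a description of the sequence only.

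The latent binders were lower on average in mutants, with wide intervals. Ltbp1, which tethers all the ligand isoforms, was at 86.1 (E420), 103.5 (E434) and 79.6 CPM (E435) in controls and at 55.9 (E423), 88.6 (E433) and 54.5 CPM (E440) in mutants. E423 and E440 lay below the controls and E433 lay inside their range. The log2 fold change of Ltbp1 was -0.44 with a 95% interval from -0.94 to 0.07 (edgeR adjusted p = 0.520). It was -0.70 without E433, -0.32 without E434, -0.33 without E423 and -0.31 without E440. Ltbp3, the binder known from its loss to shape bone length and teeth, was at 147.6 (E420), 226.9 (E434) and 135 CPM (E435) in controls and at 110.1 (E423), 166 (E433) and 98.03 CPM (E440) in mutants. Again E433 was the mutant inside the control range, and the log2 fold change was -0.45 with a 95% interval from -1.09 to 0.20 (edgeR adjusted p = 0.591). It was -0.18 without E434 and -0.70 without E433. Ltbp2 binds fibrillin and not the latent ligand. Its controls measured 16.1 (E420), 35.5 (E434) and 16.9 CPM (E435) and its mutants 16.2 (E423), 22.8 (E433) and 14.3 CPM (E440), so the log2 fold change of -0.36 rested on control E434 and became 0.11 without that library, -0.23 without E440, -0.56 without E420 and -0.58 without E433. Ltbp4, which helps fibulin-5 to assemble elastic fibers, was at 167.9 (E420), 246 (E434) and 167.6 CPM (E435) in controls and at 161 (E423), 201 (E433) and 156 CPM (E440) in mutants. Its log2 fold change of -0.17 also changed sign, to 0.04, without E434, and was -0.10 without E440, -0.26 without E420, -0.27 without E435 and -0.29 without E433.

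**Figure D2:**
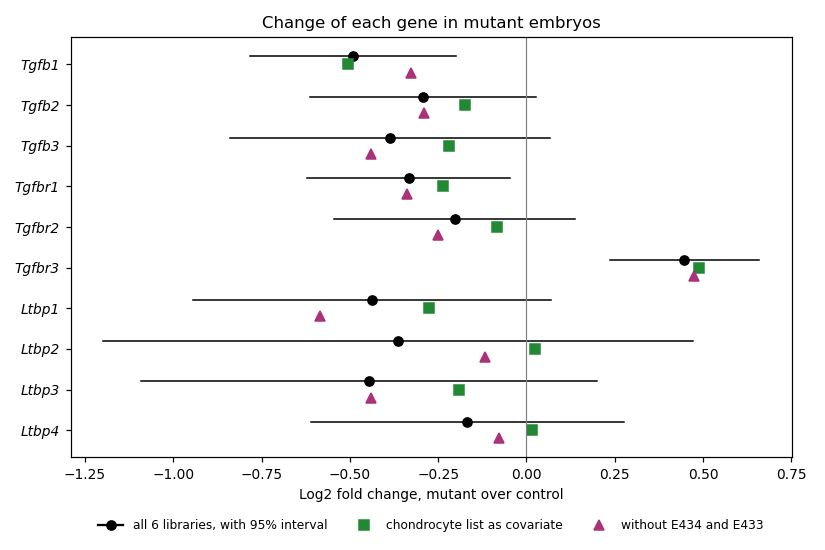
Log2 fold change of mutants over controls (x axis) for each gene (y axis). Black points with lines are the fit to all 6 libraries with its 95% interval, green squares the fit with the mean chondrocyte marker level as a covariate, and purple triangles the fit without E434 and E433. Only Tgfb1, Tgfbr1 and Tgfbr3 have intervals that leave out 0, and Tgfbr3 stays between 0.45 and 0.49 in all 3 fits.

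Levels can be compared between genes only per transcript length, so TPM from RSEM was used. In controls the order of mean levels was Ltbp3 (86.8 TPM), Ltbp4 (58.6 TPM), Tgfb3 (57.8 TPM), Tgfbr2 (40.2 TPM), Tgfbr1 (29.3 TPM), Tgfb1 (26.6 TPM), Ltbp1 (24.0 TPM), Tgfb2 (20.1 TPM), Tgfbr3 (12.3 TPM) and Ltbp2 (5.67 TPM). The ranges over the 3 controls did not overlap between Tgfb3 and Tgfbr2, Tgfbr2 and Tgfbr1, Tgfb2 and Tgfbr3, or Tgfbr3 and Ltbp2, and overlapped for the other 5 neighbors in this order. Tgfb3 was the highest ligand and Tgfbr2 the highest receptor in 6 of 6 libraries. Tgfb1 was above Tgfb2 in 5 of 6, with mutant E433 as the exception, and Ltbp3 was above Ltbp4 in 5 of 6, with mutant E423 as the exception. These orders hold for TPM only. Per summed exon base of the count table, control means put Tgfb1 (40.1 CPM, 5042 bases) below Tgfb2 (64.0 CPM, 5791 bases). Ltbp3 (169.9 CPM, 9069 bases) was then below Ltbp4 (193.9 CPM, 6463 bases). Tgfbr2 (149.5 CPM, 8187 bases) and Tgfbr1 (119.2 CPM, 6534 bases) were then nearly level.

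Shares of the summed TPM within each role group were compared, since a share does not depend on how much of the whole group a library holds. Tgfbr1 made up 35.7% (E420), 35.9% (E434) and 35.7% (E435) of the receptor TPM in controls and 30.9% (E423), 30.7% (E433) and 30.7% (E440) in mutants, a difference of -5.02 percentage points with an SD of 0.131 and 0.129 points inside the groups. Tgfbr3 made up 14.3% to 15.6% in controls and 20.6% to 23.9% in mutants, a difference of 7.44 points. The ratio of Tgfbr1 to Tgfbr2, which does not contain Tgfbr3 and was chosen after the values were seen, was 0.721 to 0.734 in controls and 0.631 to 0.684 in mutants. Among the ligands Tgfb3 held 53.7% to 57.1% in controls and 50.9% to 59.6% in mutants, and Tgfb2 held 18.9% to 20.04% in controls and 20.5% to 21.6% in mutants, without overlap. The shares of Tgfb1, Tgfb3, Tgfbr2 and of each of the 4 latent binders overlapped between the groups. In an exact permutation test, 2-sided, the 3 shares without overlap had p = 0.1, the smallest value that 3 against 3 embryos allow, and p = 0.286 after adjustment over the 10 shares tested.

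**Figure D3:**
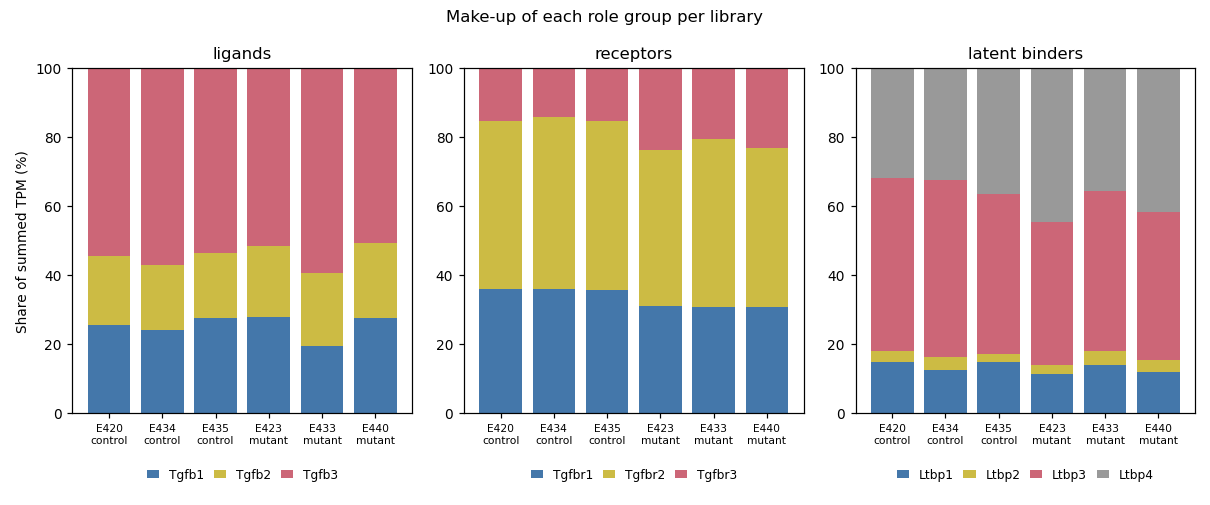
Share of each gene (y axis, percent of the summed TPM of its role group) in the 6 libraries, stacked for ligands, receptors and latent binders. Bars of Tgfbr1 end between 35.7% and 35.9% in the 3 controls and between 30.7% and 30.9% in the 3 mutants, and the top segment of Tgfbr3 is wider in all 3 mutants.

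Inside each group most members were highest in the library that was rich in cartilage RNA. In CPM the exceptions were Tgfb1, lowest in E433 among the mutants, and Tgfbr3, slightly lower in E433 than in E423. Control E434 was above the mean of E420 and E435 for all 10 genes, by a log2 ratio of 0.15 (Tgfbr3) to 1.11 (Ltbp2). Mutant E433 was above the mean of E423 and E440 for 9 of the 10, by 0.07 (Tgfbr3) to 0.68 (Ltbp1). For Tgfb1 the ratio was 0.21 in controls and -0.29 in mutants. These are ratios of CPM. In TPM the mutant levels of Tgfb1 were nearly equal, at 19.13 (E423), 19.01 (E433) and 19.02 TPM (E440). Tgfbr3 in TPM was highest in E433 among the mutants, at 16.3 (E423), 18.7 (E433) and 14.4 TPM (E440). The Ltbp3 ratios were alike in both groups, at 0.68 and 0.68. All of these are small beside Col2a1, the cartilage collagen, whose log2 ratios were 4.57 and 4.86. Other marker sums differed between the same libraries, with log2 ratios in controls and mutants of 0.33 and 0.40 for fibroblasts, 0.37 and 0.34 for endothelium, -1.36 and -1.10 for mesothelium and -8.16 and -3.06 for keratinocytes. Their part in the members' ratios was not tested. Set side by side, the library pair rich in cartilage RNA (E433 over E434) and the others (E423 and E440 over E420 and E435) gave log2 ratios of -0.83 and -0.33 for Tgfb1, -0.22 and -0.59 for Ltbp1, -0.32 and -0.34 for Tgfbr1 and 0.40 and 0.47 for Tgfbr3. These library sets were formed from the data, so the ratios carry no test.

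**Figure D4:**
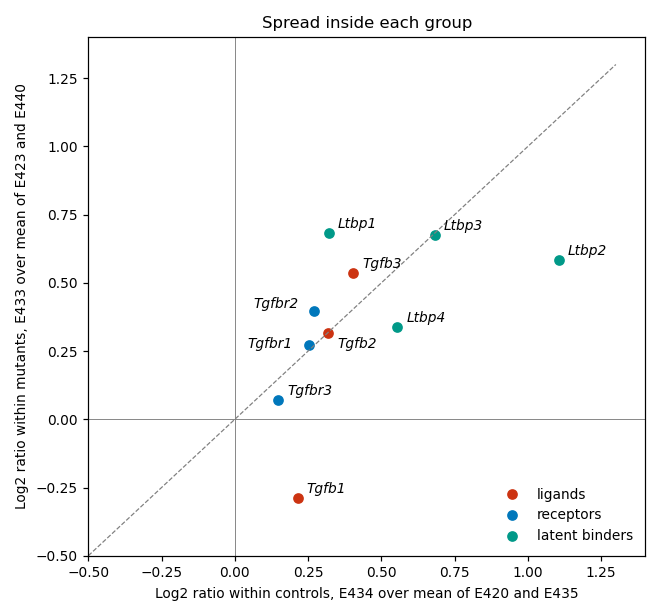
Log2 ratio of E434 to the mean of E420 and E435 within controls (x axis) against that of E433 to the mean of E423 and E440 within mutants (y axis), one point per gene, colored by role, with the line of equal ratios dashed. Ratios are of TMM-scaled CPM. Tgfb1 is the point below 0 on the y axis (-0.29), and Ltbp2 lies farthest right (1.11).

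With the mean chondrocyte marker level of each library as a covariate, edgeR called 1 of the 10 genes at an adjusted p-value under 0.1, where 0.917% of all genes were lower and 1.02% higher. This was Tgfbr3, with a log2 fold change of 0.49 (adjusted p = 0.0556). The covariate, a mean log2 CPM, was 5.64 (E420), 9.11 (E434) and 5.63 (E435) in controls. In mutants it was 4.30 (E423), 7.86 (E433) and 4.27 (E440), so it can take up part of the difference between the groups. The log2 fold change of Tgfb1 was -0.50 (adjusted p = 0.179 from edgeR), and that of Tgfb3 -0.22, Tgfbr1 -0.24, Ltbp1 -0.28 and Ltbp3 -0.19. Without E434 and E433 together, 7 members were called lower and 1 higher, but that fit of the 2 close pairs called 18.3% of all genes lower and 19.4% higher. Without mutant E433 alone, 4 were called lower (Tgfb1, Tgfb3, Tgfbr1 and Ltbp1) and 1 higher (Tgfbr3), against 6.18% and 7.22% of all genes.

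Of 99 other genes of the pathway, sorted into 5 lists by role, 0 had an adjusted p-value under 0.1 in edgeR's test, 20 were lower and 6 higher at an unadjusted p-value under 0.05 (4.7% and 5.9% of all genes), and 21 were lower and 9 higher without overlap of the groups (8.21% and 6.81% of all genes). DESeq2's test called 13 lower and 4 higher (1.73% and 2.61% of the genes it tested). The median log2 fold change over the 99 was -0.12, against 0.01 over all genes. The counts of the 5 lists at an unadjusted p-value under 0.05 are to be read against the same 4.7% and 5.9%.

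Among 26 genes of signal transduction, 5 were lower and 0 higher at an unadjusted p-value under 0.05, and the median was -0.09. The lowest log2 fold changes belonged to 3 negative regulators, which are themselves known to respond to TGF-beta or BMP signaling. Bambi, a decoy receptor without a kinase, was at 36.9 (E420), 35.9 (E434) and 40.3 CPM (E435) in controls and at 23.2 (E423), 23.3 (E433) and 24.5 CPM (E440) in mutants. The mutants lay close together and below every control, and the log2 fold change was -0.67 with a standard error of 0.0827 (adjusted p of 0.118 by edgeR and 1.25e-07 by DESeq2). Pmepa1, which binds receptor-activated SMADs, had 57.2 to 73.8 CPM in controls and 35.4 to 50.5 CPM in mutants, at a log2 fold change of -0.64 (adjusted p of 0.366 by edgeR and 0.0334 by DESeq2). Smad7, the inhibitory SMAD, had 17.1 to 22.9 CPM in controls and 11.9 to 13.7 CPM in mutants, at a log2 fold change of -0.60 (adjusted p of 0.347 by edgeR and 0.0274 by DESeq2). All 3 were lower in every mutant, and all 3 were called with the chondrocyte covariate (adjusted p from edgeR of 0.0197, 0.0362 and 0.0920). The other end of the list was Traf6 (0.36), Usp15 (0.21) and Zfyve9 (0.21), each with overlapping groups.

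Of 23 genes known to respond to TGF-beta, 6 were lower and 0 higher at an unadjusted p-value under 0.05, with a median of -0.30. The osteoblast and tendon marker sums were lower in every mutant too, and the part of these cells in this list was not tested. Timp1, an inhibitor of matrix metalloproteases, was at 24.8 (E420), 36.04 (E434) and 25.1 CPM (E435) in controls and at 14.1 (E423), 14.7 (E433) and 15.6 CPM (E440) in mutants, with a log2 fold change of -0.95 (adjusted p of 0.201 by edgeR and 0.00011 by DESeq2). Every mutant was below every control. Itga11, a collagen-binding integrin, followed with -0.77. Ccn2, a matricellular protein made by chondrocytes, had 106.5 CPM in E434 and 66.9 CPM in E433 against 23.3 to 45.5 CPM in the other libraries, so its log2 fold change of -0.75 had a standard error of 0.536. Junb (0.70), Cdkn2b (0.63) and Col3a1 (0.14) had the highest values, and their groups overlapped.

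Of 25 genes that store, release or bind the latent complex, 6 were lower and 1 higher at an unadjusted p-value under 0.05, and the median was -0.20. Mmp9, a gelatinase of osteoclasts, had 275 to 316 CPM in controls against 120.0 (E423), 18.9 (E433) and 112 CPM (E440) in mutants, with a log2 fold change of -1.81 (adjusted p of 0.421 by edgeR and 0.201 by DESeq2). The osteoclast marker sum was lowest in the same library, E433. The proteoglycans Fmod (-1.38) and Bgn (-0.71) had overlapping groups with E434 and E433 as the highest libraries of their groups, while Dcn was 442 to 539 CPM in controls and 563 to 642 CPM in mutants (log2 fold change 0.23, adjusted p = 0.535 from edgeR). Nrros, which anchors latent TGF-beta 1 on myeloid cells, had 13.8 to 14.7 CPM in controls and 16.2 to 18.7 CPM in mutants (0.29). Tgm2, a crosslinking enzyme, had the highest value of the list (0.82), with overlapping groups.

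Elastic fiber genes, which share partners with Ltbp2 and Ltbp4, had calls in both directions by DESeq2, 2 lower (Fbln5 and Lox) and 2 higher (Efemp1 and Mfap5). Of 11 genes, 2 were lower and 2 higher at an unadjusted p-value under 0.05, with a median of -0.18. Fbln5, the fibulin partner of LTBP2 and LTBP4, was at 131.9 (E420), 161 (E434) and 136.7 CPM (E435) in controls and at 73.96 (E423), 110.3 (E433) and 72.8 CPM (E440) in mutants, with a log2 fold change of -0.74 (adjusted p of 0.347 by edgeR and 0.0129 by DESeq2). Lox, the enzyme that crosslinks elastin and collagen, had 511 to 592 CPM in controls and 317.5 to 403 CPM in mutants, with a log2 fold change of -0.65 (adjusted p of 0.235 by edgeR and 0.000598 by DESeq2). Efemp1 (0.55) and Mfap5 (0.33) were higher in every mutant. Eln, elastin itself, was at -0.49 with overlapping groups, and Fbln1 at 0.14.

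In the activin branch, which uses the same SMADs, 1 of 14 genes was lower and 3 higher at an unadjusted p-value under 0.05, with a median of 0.13. Inhba, which encodes the subunit of activin A, had 10.97 to 18.4 CPM in controls and 6.93 to 9.77 CPM in mutants, with a log2 fold change of -0.72 (edgeR adjusted p = 0.421). Gdf11 and Acvr2b were both at -0.35 with overlapping groups. Acvr1c, a type I receptor of fat cells, had 0.0412 to 0.102 CPM in controls, where 3 counts equal 0.0618 to 0.0763 CPM after TMM scaling, and 5.27 (E423), 1.18 (E433) and 3.86 CPM (E440) in mutants (adjusted p of 0.145 by edgeR and 7.48e-12 by DESeq2). The adipocyte marker sum was also lowest in E433 among the mutants. Inha (0.44) and Lefty1 (0.74) were the next highest.

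**Figure D5:**
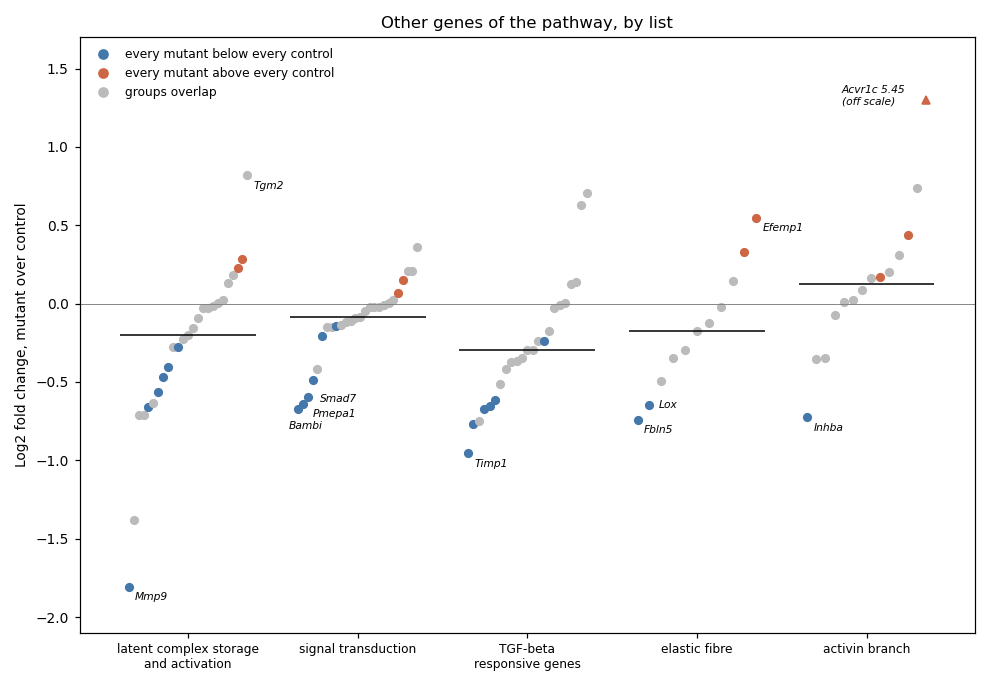
Log2 fold change of mutants over controls (y axis) for the 99 other pathway genes, sorted inside 5 lists (x axis), colored by whether every mutant lay below or above every control, with the list median as a bar. Acvr1c (5.45) lies off the scale and is drawn as a triangle at its edge. Most points lie between -1 and 1, and the list medians lie between -0.30 and 0.13.

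The genes with the most similar profiles were sought among 13012 genes with a mean of at least 5 CPM, by the root mean square difference of centered log2(CPM + 0.1) over the 6 libraries. For Tgfb3 these included Sec24d (0.0251) and Reck (0.0316), for Tgfbr2 they were Chid1 (0.0159), Cacfd1 (0.0176) and Mn1 (0.0176), and for Ltbp3 they were Pde3a (0.0306), Sardh (0.0404) and Fndc3b (0.0438). With 6 libraries in 2 close pairs and 2 single libraries, such differences describe these libraries only.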

How the data were processed

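RNA was isolated from dissected rib cages, and stranded mRNA libraries were sequenced from both ends. Per the labels and the file headers, the authors aligned reads to GRCm38 with HISAT2 2.1.0 and counted them on exons of GENCODE vM25 with featureCounts 1.6.0; the deposited counts are raw, each read end was counted alone, strand was not used and reads over several genes or places were left out. Expected counts and TPM per gene, likewise deposited, come from STAR 2.7.6 and RSEM 1.2.31. Tables of the authors' own DESeq2 comparisons (fold changes, p-values and 12 columns of per-sample values) were not used.

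The 10 members, the 5 pathway lists and the 17 marker lists were chosen with earlier results of these data known. Symbols were matched by gene ID (55141 of 55487 matched), and coordinates are those of the count table. Genes summing to at least 10 counts entered the quasi-likelihood test of edgeR 4.0.16 (R 4.3.3) after TMM scaling. A gene was called below an adjusted p-value of 0.1. The standard error is the fold change divided by the root of the F statistic. Alternatives were DESeq2 1.42.0, its size factors, a robust fit, other filters, rounded RSEM expected counts, leaving out libraries, summing the close pairs, and the mean log2 CPM of the chondrocyte list (prior count of 2) as a covariate. The edgeR and DESeq2 steps were run on simulated counts with a common dispersion. Those counts held no close pairs and no libraries that stood apart, so they do not test the fits on that structure. All 10 members, both Foxc genes and Col2a1 are named, and in each pathway list the 3 largest values either way among genes with a mean of at least 1 CPM and any gene past the adjusted limit. Shares were compared by exact permutation in scipy 1.17.1. The labels mark separate embryos but not litters, so p-values measure the spread between these embryos. Library depth limits precision through counting error only. A gene that the rule for similar profiles names is not reported here.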

Additional observations from a re-analysis of the deposited data

How the results depend on the processing

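No paired analysis was possible because embryo numbers do not repeat between the groups and, although the methods say that littermates were compared, the litter of each embryo is not given. The members called lower at an adjusted p-value under 0.1 were 0 with edgeR, 1 with DESeq2 on either set of counts and 7 without E434 and E433. Those called higher were 0 with edgeR and 1 with DESeq2 on either set of counts, without E434 and E433 or with the chondrocyte covariate. Leaving out 1 library at a time gave 0 to 4 lower and 0 to 1 higher, all calls coming without mutant E433 (6.18% and 7.22% of all genes). Other settings gave 0. Without E420, E435, E423 or E440, or with the close pairs summed, 0 of all genes tested were called either way. The 0 members of those fits are therefore no result about the members. Without E434, 0.0462% of all genes were lower and 0.0308% higher. Of the 99 pathway genes, 13 were lower and 4 higher with DESeq2 (1.73% and 2.61% of all genes). With DESeq2 on RSEM counts these were 13 and 3 (1.58% and 2.17%), and with the covariate 14 and 1 (0.917% and 1.02%). Without E434 and E433 they were 51 and 19 (18.3% and 19.4% of all genes), so that the share of higher genes was near the background. They were 1 and 1 with the robust fit (0.12% and 0.0827%) or without a filter (0.0671% each way), and 1 and 0 with filterByExpr (0.0732% and 0.0585%). Leaving out E433 alone gave 26 and 6 (6.18% and 7.22% of all genes), so that the share of higher genes was again near the background. Leaving out any other single library gave 0 and 0. Those fits called 0 of all genes, or 0.0462% and 0.0308% without E434, so these counts are no result about the pathway genes. Members lower in every mutant were 2, or 1 in TPM, 8 without E434 and E433, and 2 to 8 when 1 library was left out, the 8 coming without E433. The share of all genes lower in every mutant was not counted in those smaller sets. The 8 therefore cannot be read against a background. Log2 fold changes changed sign for Ltbp2 (0.0239 with the covariate, -0.582 to 0.106 without 1 library, above 0 without E434) and Ltbp4 (0.0149, and -0.286 to 0.0420, above 0 without E434). Without 1 library the difference in share ran from -2.16 to 2.04 points for Tgfb1 (above 0 without E435 or E433), from -3.76 to 0.585 for Tgfb3 (above 0 without E423 or E440) and from -0.0350 to 0.653 for Ltbp2 (below 0 without E435 or E433), which was -0.0806 by RPKM. The log2 fold changes of the other 8 members kept their direction in all the fits run. The cause of the differences between settings was not tested, and fits that left out libraries also had fewer of them.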
